A study of Macaca mulatta with 12 samples.

Results

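TRBV12 is a family of T cell receptor beta chain (TRB) variable segments, represented in these rhesus macaque (Macaca mulatta) libraries by 3 of the 61 V genes found, TRBV12-2, TRBV12-3 and TRBV12-4. A clonotype, meaning 1 CDR3 nucleotide sequence in 1 library, was counted as TRBV12 when its best-scoring V gene was one of these members. After infusion the family took 11881 of 218161 clonotypes and 210868 of 2587795 counts over 8 libraries, and held 11218 distinct CDR3 sequences. In the 4 baseline libraries it took 7 of 165 clonotypes and 9 of 280 counts. Because many clonotypes listed TRBV12-2 and TRBV12-3 together, both genes are also given as 1 group.

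The libraries were made to follow T cell clones in monkeys given apoptotic donor leukocytes (ADLs), donor white cells fixed with the crosslinker ECDI so that they die. By the series text they were infused on days -7 and 1 around an intended transplant on day 0. The methods of the study also name a day +1 infusion, while a legend of the study puts the second infusion on day 0. The series text was followed, since its day 1 fits a day +3 library taken 2 days later. The animals were nondiabetic and nontransplanted, were MHC class I-disparate with their donors but shared a DR allele with them, and received transient anti-CD40, rapamycin, anti-IL-6R and soluble TNF receptor. Post-infusion blood mononuclear cells carried the names Amazo, Nebula and Rocket, with 3 libraries 2 days after the first infusion (day -5), 3 libraries 3 days after it (day -4), 1 Nebula library on the intended day of transplant (day 0, 7 days after it) and 1 Amazo library 2 days after the second infusion (day +3). The 4 baseline libraries carried other names, and neither the treatment of those animals nor the time of sampling relative to immunosuppression was given by the labels. Only TRB transcripts were read, so no marker of another blood cell could be checked. A larger share can come from more cells of a clone or from more TRB RNA per cell, and these cannot be told apart.

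A TRB chain is assembled in the thymus by joining 1 V, 1 D and 1 J segment. The V segment encodes the CDR1 and CDR2 loops, which mostly touch the MHC molecule, and the junction encodes CDR3, which mostly touches the presented peptide. Segment ends are trimmed and untemplated bases are added at each joint, so that cells sharing a CDR3 nucleotide sequence with many inserted bases are usually descendants of 1 cell. TRBD1 lies ahead of both J clusters and can join either, whereas TRBD2 lies ahead of the TRBJ2 cluster.

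The members are nearly alike where they enter CDR3. The 3 lines that follow show the V end most often read in clonotypes whose V segment was aligned to its last base, starting at the codon of the conserved cysteine. Capitals mark the bases that differ between TRBV12-2 and TRBV12-4.
TRBV12-2: tgtgccagCAgtttAg
TRBV12-3: tgtgccagcagtttag
TRBV12-4: tgtgccagTGgtttGg
These ends were read in 256 of 274, 40 of 42 and 209 of 222 such clonotypes. Over these 16 bases TRBV12-2 and TRBV12-3 were identical, and TRBV12-4 differed from TRBV12-2 by the substitutions C9T, A10G and A15G, counted from 1 at the 5′ end of CDR3 with the TRBV12-2 base first. A10G turns the serine codon of the fourth CDR3 residue into a glycine codon, and the other substitutions keep the encoded residue. A CDR3 starting with CASG was carried by 79.2% to 93.7% of productive TRBV12-4 clonotypes and by 1.04% to 2.06% of those of the TRBV12-2 and TRBV12-3 group, and CASS by 0% to 4.17% and 71.8% to 77.7%. These bases contributed to the V assignment and are therefore a description of it.

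The 9 clonotypes below are the 3 largest of the family in each post-infusion library. They are shown because much of the TRBV12 counts rested on them, and they are numbered by the highest share reached. The CDR3 is printed from the cysteine codon of V to the phenylalanine codon of J, and capitals mark bases aligned to neither V, D nor J.
Clone 1: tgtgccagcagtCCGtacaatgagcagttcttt
Clone 2: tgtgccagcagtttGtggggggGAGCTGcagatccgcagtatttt
Clone 3: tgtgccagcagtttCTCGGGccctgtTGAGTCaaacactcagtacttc
Clone 4: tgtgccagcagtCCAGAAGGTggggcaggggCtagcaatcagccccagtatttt
Clone 5: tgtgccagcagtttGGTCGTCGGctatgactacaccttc
Clone 6: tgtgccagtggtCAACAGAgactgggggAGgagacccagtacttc
Clone 7: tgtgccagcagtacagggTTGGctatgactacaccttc
Clone 8: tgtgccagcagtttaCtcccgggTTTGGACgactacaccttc
Clone 9: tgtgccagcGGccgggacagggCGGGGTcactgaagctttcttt
In the library where each was largest, clones 1, 2 and 7 listed TRBV12-2 before TRBV12-3, clone 5 listed TRBV12-3 before TRBV12-2, clones 3, 4, 8 and 9 listed TRBV12-2 alone, and clone 6 was TRBV12-4. In libraries where they had at most 7 counts, clones 1 to 4 could list these genes otherwise, and clone 1 listed TRBV12-2 alone in Amazo day -4. Clone 1 joined TRBJ2-1 with no D segment found and 3 bases between V and J, the shortest junction of the 9. Clone 2 used TRBD2 and TRBJ2-3, clone 3 TRBD1 and TRBJ2-4, clone 4 TRBD1 and TRBJ1-5, and clone 6 TRBD2 and TRBJ2-5. Clones 5, 7 and 8 all ended in TRBJ1-2, and clone 9 in TRBJ1-1. Clones 7 and 9 were out of frame and encode no full beta chain.

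Libraries held 63 to 74 counts at baseline and 42695 to 556954 after infusion, so that 3 counts, the smallest number taken as measurable, amounted to 4.05% to 4.76% at baseline and to 0.000539% to 0.00703% later. TRBV12 clonotypes also showed which libraries belonged together. The library labelled Amazo day -5 shared 87 TRBV12 clonotypes with Rocket day -5, which were 4.12% and 9.14% of their TRBV12 clonotypes and 71.9% and 81.6% of their TRBV12 counts. It shared 158 with Rocket day -4 and 116 with Amazo day +3, but 13 with Amazo day -4. Those 13 held 64.9% of TRBV12 counts in Amazo day -5 and 28.5% in Amazo day -4, through clones large in only 1 of them. Clones 1 and 2 had 14148 and 9047 counts in Amazo day -5 but 7 and 3 in Amazo day -4. Clone 3 had 100 and 5802. Amazo day -4 shared at most 13 TRBV12 clonotypes with any other library, while the 3 Nebula libraries shared 61 to 101 with each other and the 2 Rocket libraries shared 92. The names are therefore given as labels, the libraries labelled Amazo day -5 and Amazo day +3 are read beside Rocket, and a difference between Amazo day -5 and Amazo day -4 compares different repertoires.

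TRBV12 was among the most used V families in the repertoire that carried the labels Rocket, Amazo day -5 and Amazo day +3, and of middle rank elsewhere. It took 10.4% of counts in Amazo day -5 (36026 counts, 95% Wilson interval 10.2% to 10.4%) and 11.2% in Amazo day +3 (34034 counts, 11.1% to 11.3%). In Rocket it took 10.1% at day -5 (56137 counts, 10.0% to 10.2%) and 10.3% at day -4 (26632 counts, 10.1% to 10.4%). These 4 libraries did not overlap with the other 4. They were set apart above by shared TRBV12 clonotypes, which held most of their TRBV12 counts. The gap therefore describes that grouping and is not a separate test of it. The 4 libraries also share a repertoire and are not separate agreements. How many other V families part the libraries in this way was not tested. The family was the largest of 27 V families in the first pair and second to TRBV9 in the Rocket libraries. In Amazo day -4 it took 5.79% of counts (22740 counts) and ranked 8th. In Nebula it took 5.02% at day -5 (21398 counts), 4.77% at day -4 (2036 counts) and 4.60% at day 0 (11865 counts), at ranks of 8 to 9. Intervals cover counting error only, since copies made by PCR are not independent molecules.

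Counting each clonotype once, the libraries were much closer together. TRBV12 made up 6.01%, 5.67%, 5.58% and 6.19% of clonotypes in Amazo day -5, Amazo day +3, Rocket day -5 and Rocket day -4. It made up 5.50% in Amazo day -4 and 4.96%, 4.46% and 4.69% in Nebula at days -5, -4 and 0. The highest value was thus 6.19% and the lowest 4.46%, against 11.2% and 4.60% of counts. Between 2 and 4 TRBV12 clonotypes per library reached 0.1% of its counts. With clonotypes of at least 0.1% of every V gene left out, the remaining clonotypes held 59.6%, 56.2%, 45.2% and 54.9% of all counts in Amazo day -5, Amazo day +3, Rocket day -5 and Rocket day -4. Of these remaining counts, TRBV12 took 5.74%, 5.59%, 5.04% and 5.97%. In Amazo day -4 and Nebula at days -5, -4 and 0 the remainder was 77.8%, 93.8%, 89.2% and 93.3% of counts, and TRBV12 took 5.38%, 4.43%, 4.16% and 4.32% of it. Among the smaller clonotypes the Rocket-type libraries thus overlapped with Amazo day -4 and lay above Nebula.

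**Figure D1:**
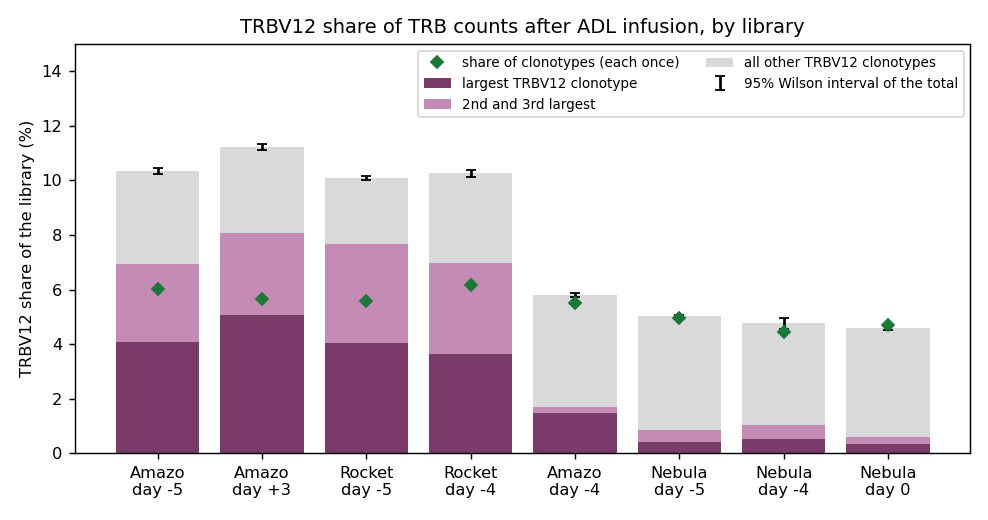
Share of TRB counts taken by TRBV12 in each post-infusion library, in percent, split into the largest TRBV12 clonotype, the 2nd and 3rd largest, and all others, with the 95% Wilson interval of the total. Diamonds give the share of clonotypes counted once. The 4 bars of the Rocket type reach 10.1% to 11.2% and the other 4 reach 4.60% to 5.79%, while all diamonds lie between 4.46% and 6.19%.

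Most of the TRBV12 counts in the Rocket-type libraries came from 3 clonotypes. Clone 1 held 4.06% of all counts in Amazo day -5, 5.06% in Amazo day +3, 4.04% in Rocket day -5 and 3.62% in Rocket day -4, and was the 2nd or 4th largest clonotype of these libraries over all V genes. Clone 2 held 2.60%, 2.72%, 3.36% and 3.08% of counts in the same order and ranked 5th in all 4 libraries. Clone 6, the only TRBV12-4 clonotype of the 9, held 0.266%, 0.282%, 0.262% and 0.271%. Together they were 66.9% to 76.1% of TRBV12 counts in these libraries.

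Outside the Rocket-type libraries these clones were near the limit of measurement. Clone 1 had 7 counts in Amazo day -4, 5 in Nebula day -5, 0 in Nebula day -4 and 6 in Nebula day 0. Clone 2 had 3, 4, 0 and 3 counts, and clone 6 had 0 in all 4 libraries. In Nebula day -4, the shallowest of them, 3 counts are a share of 0.00703%, and the upper Wilson bound of 0 counts is 0.0090%.

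Amazo day -4 had leading clonotypes of its own. Clone 3 held 1.48% of its counts (5802 counts), 25.5% of its TRBV12 counts, and ranked 5th over all V genes. The same clonotype had 100 counts (0.0287%) in Amazo day -5 and 5 counts in Amazo day +3, and 0 in the Rocket and Nebula libraries. The out-of-frame clones 7 and 9 followed with 489 counts (0.125%) and 343 counts (0.0874%). Clone 7 was read in no other library and clone 9 had 12 counts in Amazo day -5. With these transcripts, 92.8% of TRBV12 counts in Amazo day -4 were productive, the lowest of the 8 libraries, against a highest value of 99.1% in Amazo day -5.

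In Nebula no TRBV12 clonotype was dominant to that degree. Clone 4 held 0.402%, 0.522% and 0.332% of counts at days -5, -4 and 0, and was the 3rd or 4th largest clonotype of the library. Clone 5 held 0.347%, 0.415% and 0.232%, and clone 8 held 0.113%, 0.119% and 0.0473%. The 3 largest clonotypes together were 17.2%, 22.1% and 13.3% of TRBV12 counts. None of the 3 was read in the Rocket libraries, and 1 count of clone 4 in Amazo day +3 was the only one elsewhere. None of the 9 clonotypes was read at baseline, where the upper Wilson bound of 0 counts is 5.75% in the smallest library.

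**Figure D2:**
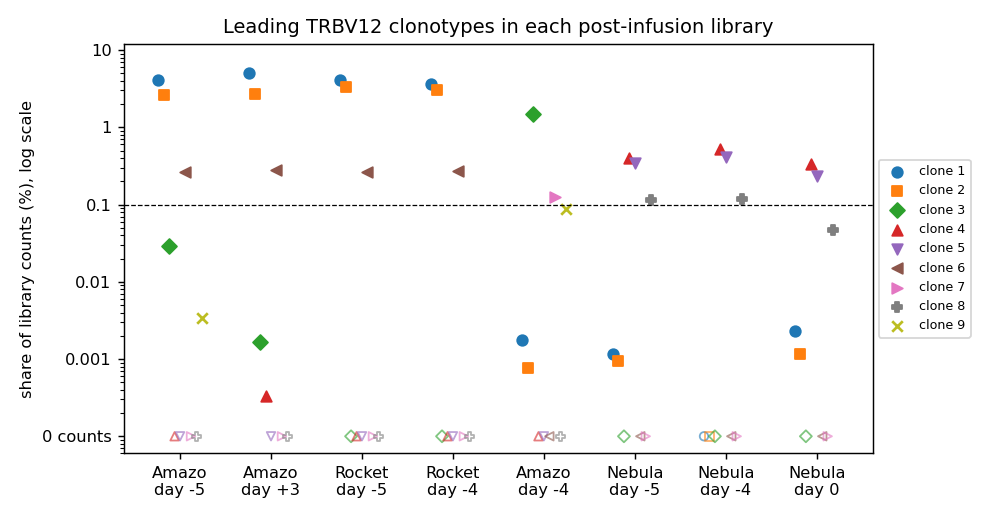
Share of library counts, in percent on a log scale, of the 9 leading TRBV12 clonotypes in each post-infusion library. Open symbols on the lowest line mark 0 counts and the dashed line marks 0.1%. Clones 1, 2 and 6 stand above the line in the 4 Rocket-type libraries alone, clone 3 in Amazo day -4, and clones 4 and 5 in all 3 Nebula libraries.

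Among the members, TRBV12-2 held most of the counts in every post-infusion library. It took 9.14%, 10.1%, 9.18% and 9.10% of all counts in Amazo day -5, Amazo day +3, Rocket day -5 and Rocket day -4, and 4.65%, 3.72%, 3.42% and 3.34% in Amazo day -4 and Nebula at days -5, -4 and 0. TRBV12-3 ran the other way, with 0.746%, 0.679%, 0.504% and 0.645% in the first 4 libraries and 1.02%, 1.17%, 1.23% and 1.10% in the others. TRBV12-4 took 0.457%, 0.468%, 0.40% and 0.511% in the first 4 and 0.131%, 0.134%, 0.124% and 0.158% in the others. Among counts in clonotypes below 0.1%, which leave out clone 6, TRBV12-4 took 0.322%, 0.331%, 0.303% and 0.437% in the first 4 libraries. In the others it took 0.169%, 0.143%, 0.139% and 0.169%. As a share of all counts, the same TRBV12-4 clonotypes took 0.192%, 0.186%, 0.137% and 0.240%, against 0.131%, 0.134%, 0.124% and 0.158%. The first 4 libraries thus lay higher by the first measure and overlapped with the others by the second.

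The split between TRBV12-2 and TRBV12-3 was not firm. Of the counts assigned first to TRBV12-2, 89.9% to 92.6% also listed TRBV12-3 in the Rocket-type libraries, against 8.86% to 35.1% in Amazo day -4 and Nebula. Of the counts assigned to TRBV12-3, 40.0% to 51.3% also listed TRBV12-2 in the first set and 88.2% to 98.1% in the second. Counting each clonotype once, the contrast was smaller. It was 65.8% to 72.5% against 18.5% to 54.0% for TRBV12-2, and 56.5% to 63.2% against 85.0% to 98.55% for TRBV12-3. Where both were listed, the median gap between their alignment scores was 40.5 to 96.0. TRBV12-4 was never listed with another gene. Counts that listed a V gene outside the family were at most 0.0147% of TRBV12 counts in any library, so the family total did not depend on this ambiguity.

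Day -5 and day -4 were the times at which all 3 names had a library, and they were compared within names. The family held 8.48% ± 3.00 of all counts on day -5 and 6.94% ± 2.92 on day -4 (SD, n = 3), a difference of -1.54 percentage points that was negative in 2 of 3 names (exact two-sided sign-flip permutation p = 0.5, where 0.25 is the smallest possible). Without Amazo, whose libraries hold different repertoires, the mean difference was -0.0374. For the TRBV12-2 and TRBV12-3 group the share was 8.15% ± 2.83 and 6.68% ± 2.70 (SD, n = 3, exact permutation p = 0.5). For TRBV12-4 it was 0.330% ± 0.173 and 0.255% ± 0.221 (SD, n = 3, exact permutation p = 0.75). With clonotypes of at least 0.1% of every V gene left out of both TRBV12 and the total, the family difference became 0.0991 percentage points. The largest clonotype took 29.1% ± 18.3 of TRBV12 counts at day -5 and 23.9% ± 12.3 at day -4 (SD, n = 3, exact permutation p = 0.5). None of these differences exceeded the spread between names.

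Over all V genes, edgeR's quasi-likelihood test with the name as a block called 0 of 57 (0.0% higher and 0.0% lower), with 0 at an unadjusted p under 0.05, and DESeq2 called 0 with 5 at an unadjusted p under 0.05. TRBV12-2 changed by -0.45 ± 0.36 on the log2 scale (SE, edgeR adjusted p = 0.649). TRBV12-3 differed by 0.21 ± 0.20 (edgeR adjusted p = 0.673) and TRBV12-4 by -0.59 ± 0.53 (edgeR adjusted p = 0.673). TRBV12-4 turned to 0.09 without Amazo.

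Single clonotypes that reached 0.1% of one or both libraries of a pair were tested on their counts (Fisher's exact test, adjusted by Benjamini-Hochberg over clonotypes of all V genes) and called at 2-fold or more. With 1 library per time, this compares libraries and not conditions, and its p-values cover counting error only. Between Rocket day -5 and day -4, 52 clonotypes were tested, of which 1.92% were lower and 0.0% higher, and 0 of 4 TRBV12 clonotypes were called. Clone 1 was at 0.897 times its day -5 share, clone 2 at 0.917 times and clone 6 at 1.03 times. The remaining clonotype, outside the 9, was at 0.659 times. Between Nebula day -5 and day -4, 25 were tested, of which 0.0% were lower and 8.0% higher, and 0 of 3 TRBV12 clonotypes were called, with clone 4 at 1.30 times and clone 5 at 1.19 times. Between Nebula day -5 and day 0, 23 were tested, of which 8.70% were lower and 0.0% higher. Clone 8 fell to 0.417 times its share (adjusted Fisher exact p = 1.06e-19), 1 of 3 TRBV12 clonotypes, while clone 5 stood at 0.668 times and clone 4 at 0.827 times.

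Between the libraries labelled Amazo day -5 and Amazo day -4, all 5 TRBV12 clonotypes tested were called, as were all 81 clonotypes over all V genes (58.0% lower and 42.0% higher). Clones 1, 2 and 6 were lower, and clones 3 and 7 were higher, clone 3 by 51.5-fold and clone 7 by at least 145-fold against a floor of 3 counts. This pair joins 2 different repertoires. Between Amazo day -5 and Amazo day +3, which share a repertoire, 49 clonotypes were tested (10.2% lower, 0.0% higher) and 0 of 3 TRBV12 clonotypes were called, with clone 1 at 1.25 times, clone 2 at 1.05 times and clone 6 at 1.06 times.

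The baseline libraries give a coarse background. TRBV12 had 1, 0, 2 and 6 counts in baseline libraries 1 to 4, which were 1.37%, 0%, 2.70% and 8.57% of counts. The upper bounds of the Wilson intervals were 7.36%, 5.75%, 9.33% and 17.5%, so a single baseline library could not set TRBV12 apart from the Nebula shares of 4.60% to 5.02%. TRBV12-4 had 0 counts in all 4. TRBV12-2 had 1, 0, 1 and 2 counts, all at or below the floor of 3. In edgeR with TMM scaling, 9 of 56 V genes were higher at day -5 than at baseline (16.1%) and 0 were lower (0.0%), with a median log2 difference of 1.84 over all V genes. This split depended on the scaling, since total counts alone gave 1 higher and 2 lower, and DESeq2 gave 9 higher and 3 lower. At day -4, 5 of 54 were higher (9.26%) and 0 lower (0.0%), with a median of 1.52, against 0 calls with total counts alone and 2 higher and 1 lower with DESeq2. TRBV12-2 was among them, at 3.42 ± 0.94 on the log2 scale at day -5 (SE, edgeR adjusted p = 0.00627) and 3.05 ± 0.96 at day -4 (SE, edgeR adjusted p = 0.0231). The TRBV12 members, alone or merged, met the filter of 10 counts in 3 libraries through the post-infusion libraries alone. These calls therefore lend no support to a rise from baseline. With scaling by total counts alone TRBV12-2 was not called, at 2.33 (edgeR adjusted p = 0.132) and 1.97 (edgeR adjusted p = 0.277), and the medians were 0.80 and 0.50. TRBV12-3 stood at -0.15 ± 0.97 and 0.10 ± 1.07 (SE, edgeR adjusted p = 0.943 and 0.924). Merged with TRBV12-3, the group passed at day -5 (2.36 ± 0.86, edgeR adjusted p = 0.0400) and did not at day -4 (2.07 ± 0.87, edgeR adjusted p = 0.132). Without baseline library 4, 0 V genes were called at day -5. All baseline libraries were shallow and all later ones deep, so depth and group cannot be told apart.

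The J segment encodes the end of CDR3 and was not used to choose the members. Counted once per productive clonotype, TRBV12 joined the TRBJ1 cluster more often than other V genes did, in 8 of 8 post-infusion libraries. The Rocket-type libraries share a repertoire, as do the Nebula libraries, so here and below the 8 are not separate agreements. The share was 41.3%, 43.4%, 39.5% and 41.0% in Amazo day -5, Amazo day +3, Rocket day -5 and Rocket day -4, against 34.7%, 35.1%, 34.5% and 35.5% for other V genes. It was 41.4% against 36.9% in Amazo day -4. In Nebula it was 48.5%, 51.2% and 50.5% at days -5, -4 and 0, against 41.6%, 41.6% and 41.7%. Both TRBV12 and the other V genes were thus higher in Nebula. Ranked among the 21 to 23 V families with at least 100 productive clonotypes, TRBV12 was 4th to 7th highest in TRBJ1 use in each library, so other families used the cluster more.

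By single J gene, TRBJ2-1, TRBJ2-7 and TRBJ1-2 were the J genes most used with TRBV12, with medians of 12.3%, 10.8% and 9.94% of productive clonotypes over 8 libraries, against 11.3%, 11.7% and 7.24% for other V genes. TRBJ1-1 and TRBJ1-2 were higher with TRBV12 in 8 of 8 libraries. TRBJ2-4, TRBJ2-5, TRBJ2-6 and TRBJ2-7 were lower in 8 of 8. For TRBJ1-1 the median was 7.63% against 5.64%, and for TRBJ2-4 it was 6.93% against 9.13%.

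At day -5, edgeR with the library as a block called 5 of 13 J genes between TRBV12 and the other V genes, 3 higher with TRBV12 (23.1%) and 2 lower (15.4%). TRBJ1-1 took 7.62%, 10.1% and 6.93% of productive TRBV12 clonotypes in Amazo, Nebula and Rocket, against 5.14%, 6.98% and 5.34% of the others (log2 difference 0.52 ± 0.09, SE, edgeR adjusted p = 2.97e-05). TRBJ1-2 took 9.39%, 10.0% and 8.64%, against 7.08%, 8.19% and 6.77% (0.36 ± 0.07, edgeR adjusted p = 0.000177). TRBJ1-4 was higher by 0.23 ± 0.07 (edgeR adjusted p = 0.00731). TRBJ2-4 took 6.74%, 7.03% and 7.16%, against 9.14%, 8.50% and 8.56% (-0.35 ± 0.08, edgeR adjusted p = 0.000440), and TRBJ2-5 differed by -0.20 ± 0.07 (edgeR adjusted p = 0.0315). The Amazo and Rocket libraries of this day share a repertoire, and without Amazo 3 J genes were called, all of them higher with TRBV12. Without the block 0 were called.

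At day -4, where the 3 libraries held 3 different repertoires, 4 of 13 J genes were called, 2 higher (15.4%) and 2 lower (15.4%). TRBJ1-2 took 10.7%, 10.9% and 10.1% of productive TRBV12 clonotypes in Amazo, Nebula and Rocket, against 7.25%, 8.68% and 7.23% (log2 difference 0.47 ± 0.11, SE, edgeR adjusted p = 0.00194). TRBJ1-1 was higher by 0.42 ± 0.12 (edgeR adjusted p = 0.00646). TRBJ2-4 took 7.41%, 6.56% and 7.06%, against 10.3%, 9.25% and 9.13% (-0.43 ± 0.11, edgeR adjusted p = 0.00311), and TRBJ2-6 differed by -0.30 ± 0.10 (edgeR adjusted p = 0.0457). TRBV12 and the other V genes did not overlap for TRBJ1-2 or TRBJ2-4 on either day. Over 8 libraries TRBJ1-2 did overlap (8.64% to 10.9% against 6.77% to 8.68%). Of the 13 J genes, only TRBJ2-4 and TRBJ2-7 did not overlap over 8 libraries. TRBJ2-4 ran from 6.14% to 7.41% against 8.50% to 10.3%. TRBJ2-7, called on neither day, ran from 9.31% to 11.3% against 11.4% to 12.1%. A lack of overlap alone thus did not mark the called J genes. With 2 libraries the calls were fewer, at 0 without Amazo, 3 without Nebula and 0 without Rocket, and without the block 2 were called.

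**Figure D3:**
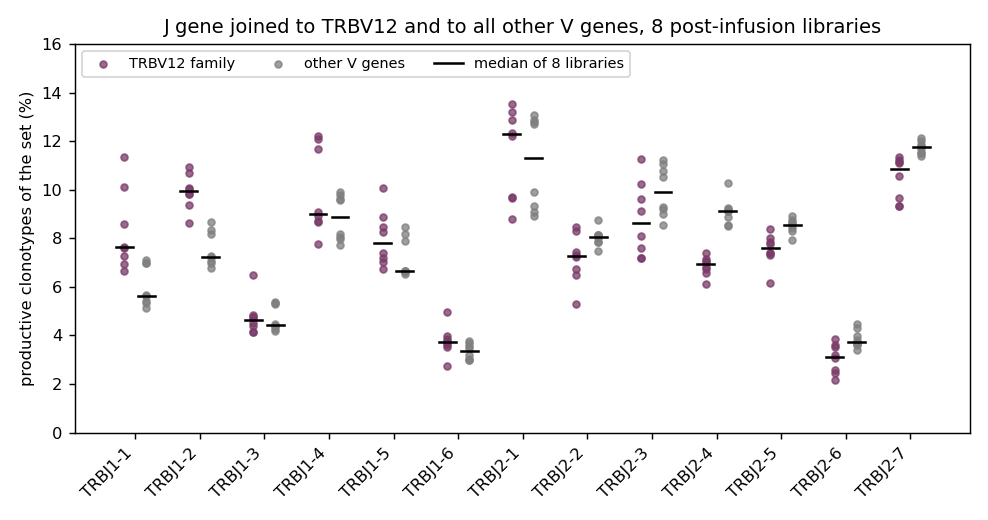
Percent of productive clonotypes joined to each of 13 J genes, for TRBV12 and for all other V genes, with 1 point per post-infusion library and a line at the median of 8 libraries. TRBJ1-1 and TRBJ1-2 lie higher with TRBV12, at medians of 7.63% and 9.94% against 5.64% and 7.24%, and TRBJ2-4 lies lower, at 6.93% against 9.13%.

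Weighted by counts, J use followed the leading clonotypes instead. The TRBJ2 cluster held 85.3%, 87.0%, 89.5% and 86.5% of TRBV12 counts in Amazo day -5, Amazo day +3, Rocket day -5 and Rocket day -4, where clones 1, 2 and 6 all used it. It held 66.1% in Amazo day -4, where clone 3 ended in TRBJ2-4 and that J gene took 30.7% of TRBV12 counts. In Nebula the TRBJ1 cluster held 59.3%, 62.3% and 58.5% of TRBV12 counts at days -5, -4 and 0, and clones 4, 5 and 8 all used it. In edgeR on summed counts TRBJ1-1 turned to -1.37 at day -5 and -0.71 at day -4, without passing the threshold.

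CDR3 of TRBV12 was slightly shorter than that of other V genes. At day -4 the mean length of productive clonotypes was 14.3 amino acids in Amazo, 14.2 in Nebula and 14.3 in Rocket, against 14.4, 14.4 and 14.5 for other V genes. The difference of -0.177 residues was negative in 3 of 3 libraries (exact two-sided sign-flip permutation p = 0.25, the smallest possible). At day -5 it was -0.145, again negative in 3 of 3 (exact permutation p = 0.25). The design cannot reach 0.05. Over all 8 libraries TRBV12 was shorter in 8, by 0.03 to 0.28 residues, and ranked 6th to 11th shortest among V families. Within the family, TRBV12-4 was longer than the group, at 14.6 to 15.3 residues against 14.1 to 14.4.

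Weighted by counts, the length distribution of the Rocket-type libraries and Amazo day -4 peaked at the lengths of their leading clones, while Nebula stayed closer to the clonotype curve. The most frequent length by clonotype was 14 residues in 7 of 8 libraries and 15 in Amazo day -4. By counts, 11 residues, the length of clone 1, held 40.5%, 46.5%, 41.2% and 36.7% of productive TRBV12 in the Rocket-type libraries, and 15 residues, the length of clones 2 and 6, held 34.5%, 32.9%, 40.4% and 39.6%. In Amazo day -4 36.1% lay at 16 residues, the length of clone 3. In Nebula the most frequent length by counts was 14 residues, with 22.6%, 22.97% and 21.4% at days -5, -4 and 0, and 10.2%, 12.5% and 9.60% lay at 18 residues, the length of clone 4.

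**Figure D4:**
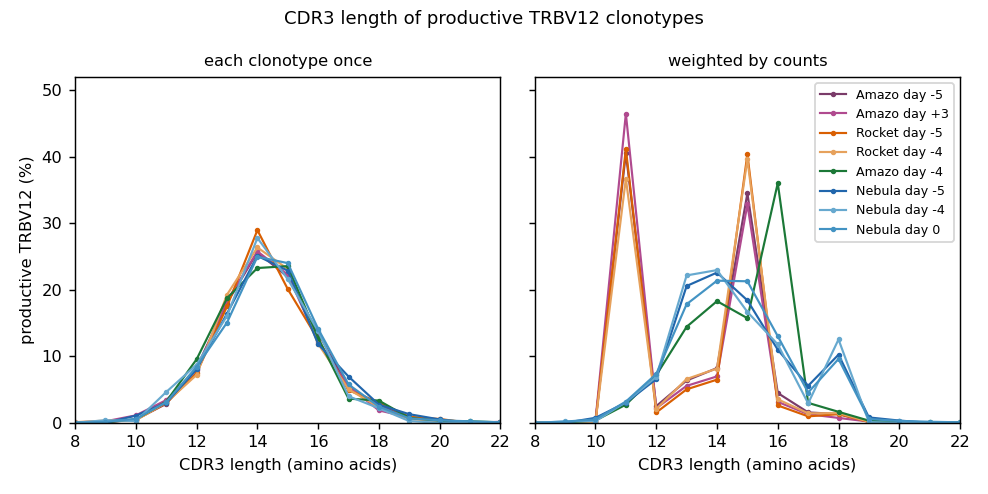
CDR3 length in amino acids of productive TRBV12 clonotypes in the 8 post-infusion libraries, as percent of clonotypes counted once and as percent of counts. The libraries lie on nearly the same curve by clonotype, while by counts the Rocket-type libraries peak at 11 and 15 residues and Amazo day -4 at 16.

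The junctions of TRBV12 also differed in how much of the V end was kept. On average 3.41 to 3.69 bases were trimmed from the V segment of TRBV12 and 2.55 to 2.85 from other V genes, with TRBV12 higher in 8 of 8 libraries. Among the 21 to 23 V families with at least 100 productive clonotypes, TRBV12 ranked 4th to 8th, so other families were trimmed more. The V end was untrimmed in 8.50% to 12.3% of productive TRBV12 clonotypes and in 21.5% to 25.1% of the others. TRBV12-4 stood apart from the group, with 27.1% to 44.1% untrimmed against 6.88% to 10.7%. Trimming depends on the germline sequence each clonotype was aligned to, and was not tested. TRBD1 was found in 52.1% to 56.6% of productive TRBV12 clonotypes and in 49.5% to 51.4% of the others, higher in 8 of 8 libraries.

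Over the 8 post-infusion libraries, the V genes whose share of counts followed that of TRBV12 most closely were TRBV14 and TRBV5-7 (Spearman rho 0.905 each) and TRBV7-3 (0.857), out of 55 V genes ranked. TRBV14 ran from 0.980% to 1.69% of counts, TRBV5-7 from 0% to 0.174% and TRBV7-3 from 1.80% to 4.11%. The 8 points include 4 libraries of 1 repertoire, and the ranking is a description.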

How the data were processed

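Libraries of TRB transcripts from blood mononuclear cells were made by template switching and PCR and read on a MiSeq. Per the labels and the study's methods, Trimmomatic was used by the authors to trim reads, and MiXCR to build clones from known rhesus TRB genes. Versions are not given in the sources used here. Each library has 1 deposited table, giving for each clone a whole-number count, which was not normalized, and a clone fraction, which is that count over the table's total. The methods of the study mention barcodes that mark single RNA molecules and a filter at 0.5% of a library. Smaller clones are present in the post-infusion tables and a barcode column is not, so counts were used as deposited.

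V, D and J were taken from the first hit, and a clonotype was a CDR3 nucleotide sequence. Chromosome positions of the segments were not used here. Germline V ends and untemplated bases were read from the alignments in the tables. The members, lists and tests were chosen with earlier results of these data known. Named clonotypes were the 3 largest of the family in each post-infusion library and any called one of at least 0.5%. Named J genes were those called and the 3 most used, and 3 V genes were named for likeness.

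Samples were grouped by the time period in the labels. Names pair day -5 with day -4. The deviations of V gene shares from the day means correlated at 0.865 for Nebula, 0.726 for Rocket and -0.226 for Amazo. Counts per V gene and clonotypes per J gene were tested with edgeR 4.0.16 in R 4.3.3 (genes with 10 or more counts in 3 or more columns, adjusted by Benjamini-Hochberg, threshold 0.05). V genes used TMM scaling and J genes total counts. The SE of an edgeR log2 difference was derived from its test, as the absolute difference over the square root of its F statistic. DESeq2 1.42.0 was an alternative. Single values were tested by exact permutation and clonotypes of at least 0.1% by Fisher's exact test. At day -5 libraries of 2 names share a repertoire, so the 3 libraries may not stand for 3 animals. The p-values of edgeR, DESeq2 and the permutation tests measure the spread between these libraries. Those of Fisher's exact test, on 1 library against 1 library, cover counting error only. The edgeR fits of V genes from day -5 to day -4 and of J genes at day -4 were run on simulated data. The fits against baseline, the J gene fit at day -5 and DESeq2 were not. Python 3.11.15, numpy 2.4.6, pandas 2.3.3, scipy 1.17.1 and matplotlib 3.10.9 were used.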

Additional observations from a re-analysis of the deposited data

How the results depend on the processing

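For the comparison of day -5 with day -4, leaving clonotypes of at least 0.1% of every V gene out of both TRBV12 and the total, an alternative chosen after seeing the data, turned the family difference to 0.0991 and that of the TRBV12-2 and TRBV12-3 group to 0.106 percentage points. Leaving out 1 name at a time gave -0.168 to 0.0509 for TRBV12-4, -0.508 to 0.0522 for the share of clonotypes, 0 to 2 V genes called, and log2 differences of -1.01 to 0.0867 for TRBV12-4.

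With any fold in place of 2-fold, TRBV12 clonotypes called were 2 in Nebula and 3 in Rocket from day -5 to day -4, 3 in Nebula to day 0 and 2 in Amazo to day +3. At 0.5% in place of 0.1%, 3 were called in Amazo to day -4 and 0 in Nebula to day 0, where at least 5-fold also left 0.

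Against baseline, total-count scaling called 3 V genes at day -5 (1 higher, 2 lower) and 0 at day -4. DESeq2 called 12 at day -5 (9 higher, 3 lower). At day -4 DESeq2 called 3, each clonotype counted once 2, and the merged group 3. Leaving out 1 library gave 0 to 16 calls at day -5 (0 without baseline library 4, 16 without Nebula) and 2 to 6 at day -4. TRBV12-3 changed sign at day -5 to 0.0761 with no filter on low counts, and at day -4 to -0.92 with total counts, -0.23 with DESeq2 and -0.38 with each clonotype once. Leaving out 1 library it ran from -0.60 to 2.07 and from -0.35 to 1.91. The cause was not tested.

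For J genes at day -4, TMM scaling called 2, no replicate block 2, and summed counts 0. At day -5 no replicate block called 0 and summed counts 1. Leaving out 1 library gave 0 to 3 and 3 to 5. With summed counts the log2 difference became -0.71 for TRBJ1-1 at day -4, and -1.37 for TRBJ1-1, -0.48 for TRBJ1-2 and -1.22 for TRBJ1-4 at day -5, where a few large clonotypes set the sum. Omitting the replicate block changed no call for V genes between day -5 and day -4. Of 320 alternative values over 35 results, 192 were log2 differences of single V or J genes. Of these, 132 kept direction and side of the threshold, 46 lost the threshold and 14 changed sign. The other 128 were differences in share or length, or numbers called, and were not held against the threshold. Of them, 93 kept their sign or a similar number called, 30 moved further and 5 changed sign. At baseline, 63 to 74 counts do not resolve a share below 4.05%.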

Other observations

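At least 2 counts of the same TRBV12 CDR3 in amino acids were found in Amazo day -4, in Nebula and in Rocket for 3 sequences, out of 1196, 2724 and 2451 such sequences in these sets. For 1 of the 3, no nucleotide sequence was common to all. Clones 1 and 2 meet this rule through few counts outside the Rocket type. Clone 1 had 7 counts in Amazo day -4 and 5 and 6 in Nebula at days -5 and 0, against 22512 in Rocket day -5. Clone 2 had 3 counts in Amazo day -4 and 4 and 3 in these Nebula libraries, against 18727. The origin of these low counts was not tested. TRBV12 clonotypes read once made up 9.33% to 45.9% of TRBV12 clonotypes per library, and the highest value was in Nebula day -4, the shallowest library. TRBV12 clonotypes 1 base away from a clonotype of any V gene at least 20 times larger were 0% to 1.15% of TRBV12 clonotypes. They held at most 0.0484% of TRBV12 counts. Productive sequences were 92.4% to 96.3% of TRBV12 clonotypes.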
